A study of Mus musculus with 2 samples.

Results

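Adventitial and gingival-type fibroblasts were examined in single-cell RNA sequencing of mouse mandibular first molars with the tissue around them. The cells were selected by expression: at least 200 genes, at most 20% mitochondrial UMIs (unique molecular identifiers, 1 per captured RNA molecule), Col1a1 of at least 1% of UMIs, and at least 5 UMIs summed over Clec3b, Mfap5, Dpt, Pi16 and Ly6a. Cells with 3 or more UMIs over Ccl19 and Gdf10, or with 4 or more over the endothelial genes Cdh5, Pecam1, Egfl7, Emcn, Kdr and Flt1 or over the mural genes Rgs5, Notch3, Kcnj8, Abcc9 and Higd1b, were left out. In all, 1002 of 17780 kept cells met these limits. Because the limits use measured UMIs, the number of members and the level of the genes in the rule are descriptions.

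Neonatal C57BL/6J mice were injected intraperitoneally with clodronate liposomes (Lipo-Clo, 40 µg per g body weight) or with an equal volume of vehicle liposomes (Lipo-PBS) every 3 days from postnatal day (PN) 3.5. Tissue was taken at PN15.5, 3 days after the last injection. Clodronate liposomes are taken up by phagocytes and kill them, and the study used them to deplete macrophages during root formation. Each condition is 1 library, and the number of mice in it is not given in the sources used here, so no difference between conditions has a replicate check and none was tested. Lipo-Clo held 9362 cells with 31053404 UMIs, and Lipo-PBS 9653 cells with 30537834 UMIs.

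Fibroblasts of the adventitia, the outer connective sheath of blood vessels, and of fascia share a program of secreted matrix and surface proteins. Clec3b encodes tetranectin, a plasminogen-binding lectin, and Mfap5 a glycoprotein of elastic microfibrils. Dpt encodes dermatopontin, which binds collagen and decorin, Pi16 a peptidase inhibitor, and Ly6a the surface antigen Sca-1. Such cells are found around vessels in most organs, and gingival fibroblasts form the collagen-rich connective tissue of the gum.

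The libraries differed before any selection. Mitochondrial transcripts were 0.368% of UMIs in the kept cells of Lipo-Clo and 1.74% in those of Lipo-PBS, and they were also scarcer in Lipo-Clo members (0.232%) than in Lipo-PBS members (1.498%). Haemoglobin transcripts were 1.71% of member UMIs in Lipo-Clo and 3.63% in Lipo-PBS. The libraries shared 30 cell barcodes, 3 of which belonged to Lipo-PBS members and 0 to Lipo-Clo members. Depth per member was similar, with a median of 3161 UMIs in Lipo-Clo and 3511 in Lipo-PBS.

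Members made up a smaller part of the Lipo-Clo library. There were 342 members among 8886 kept Lipo-Clo cells, or 3.85% (exact binomial 95% interval 3.46 to 4.27), and 660 among 8894 kept Lipo-PBS cells, or 7.42% (6.88 to 7.99). On the log2 scale this ratio of Lipo-Clo to Lipo-PBS was −0.95 (−1.14 to −0.76). All intervals here cover counting error only. Among the Col1a1 cells that passed the endothelial and mural limits members made up 9.11% of 3753 Lipo-Clo and 16.1% of 4108 Lipo-PBS cells (log2 ratio −0.82, −1.01 to −0.63). When Col1a1 cells were thinned to 2000 UMIs each, which left out 824 Lipo-Clo and 913 Lipo-PBS cells, 6.11% (5.27 to 7.04) and 10.9% (9.80 to 11.99) still held 5 marker UMIs. The most similar class, fibroblasts with 3 or more UMIs of the chemokine gene Ccl19 and the BMP-family gene Gdf10, made up 3.25% of the Lipo-Clo and 3.77% of the Lipo-PBS Col1a1 cells (log2 ratio −0.21, −0.57 to 0.14).

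The markers were also more abundant outside the members in Lipo-PBS. B lineage cells, which should lack Clec3b, Mfap5, Dpt and Pi16, carried the 5 markers at 134 CPM (UMIs of a gene per 1000000 UMIs of the same cells) in Lipo-Clo and at 319 CPM in Lipo-PBS, at median depths of 1144.5 and 1431 UMIs. Ly6a, which lymphocytes can express, made up 51.4 and 109 CPM of these sums, so they are no pure measure of free RNA. The other Col1a1 cells, below the marker limit, carried 162 and 231 CPM, against 3315 and 3419 CPM in the members. A stricter limit of 10 marker UMIs gave a log2 ratio of −0.94 for the share. The part of free marker RNA in the difference was not tested further.

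**Figure D1:**
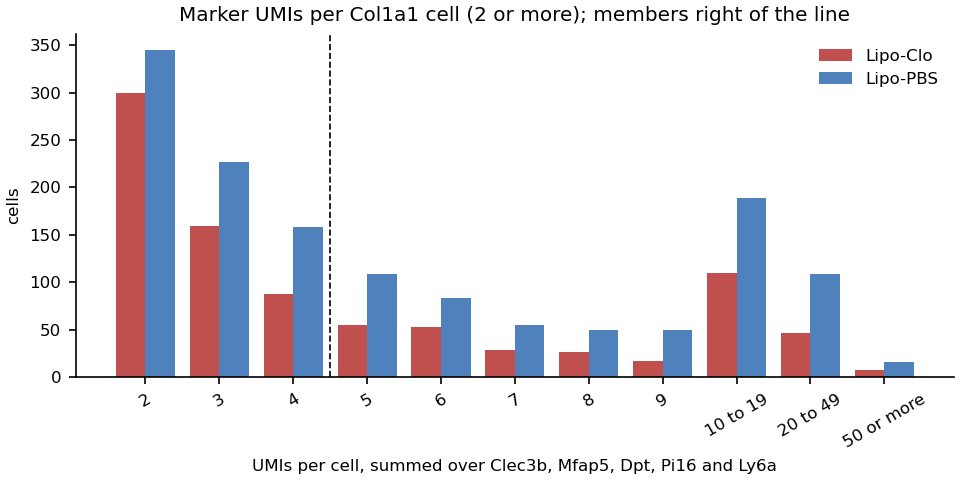
Number of Col1a1 cells (y axis) by UMIs summed over the 5 markers (x axis, 2 or more shown; the last 3 classes are wider), in Lipo-Clo (red) and Lipo-PBS (blue), with members right of the dashed line. Lipo-PBS has more cells in each class drawn, with 109 against 55 just inside the limit and 158 against 87 just outside it.

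The limit cut through a continuous distribution. Just inside it, 55 Lipo-Clo and 109 Lipo-PBS cells had exactly 5 marker UMIs, and just outside it 87 and 158 cells had 4. The surface sialomucin Cd34, which the rule did not use, stood at 76.9 and 199 CPM (Lipo-Clo and Lipo-PBS, in this order throughout) just inside, at 105 and 150 CPM just outside, and at 569 and 495 CPM in cells with 10 to 19 marker UMIs. At least 3 of the 5 markers were detected in 60.2% of Lipo-Clo and 73.0% of Lipo-PBS members.

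Beyond the markers of the rule, the members were set apart by matrix and surface genes known from perivascular and fascial fibroblasts. Each fold is the lower of the values from the 2 libraries, against Col1a1 cells below the marker limit and without Ccl19 and Gdf10. Tnxb, which encodes the collagen-spacing glycoprotein tenascin-X, was at 285 CPM in Lipo-Clo and 326 in Lipo-PBS members, against 7.54 and 25.5 CPM in the other Col1a1 cells, a log2 fold of 3.67. Cd34 was at 429 and 455 CPM against 18.7 and 44.2 (3.36), and Igfbp6, which binds insulin-like growth factor 2, at 612 and 686 against 33.4 and 79.1 (3.12). Col6a6, a collagen VI chain, had a log2 fold of 3.70, the alarmin gene Il33 of 3.49, the tubulin-binding gene Tppp3 of 3.17, the fibril-associated collagen gene Col14a1 of 3.03 and the ectonucleotidase gene Entpd2 of 3.03. The adipogenesis-associated gene Medag (2.88), Emilin2 (2.59), which encodes an elastin-interface protein, and Fbn1, the fibrillin-1 gene, followed. Of the genes detected in 20% or more of each library's members, 105 were at least 2-fold higher in the members of both libraries. In a separate count without this detection limit, 14 of the 16 genes in use from a list of 20 adventitial markers were at least 2-fold higher. The members were chosen by markers of this kind, and the matching share of all genes in use is not given. Dpp4, often used to mark such cells, had a UMI in only 1.17% of Lipo-Clo and 3.18% of Lipo-PBS members, against 0.486% and 0.547% of the other Col1a1 cells and 12.1% and 14.8% of B lineage cells.

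Several of these genes were no higher in the other Col1a1 cells than in B lineage cells. Clec3b, at 6.22 CPM in Lipo-Clo and 16.7 in Lipo-PBS there, was at 15.1 and 37.3 CPM in B lineage cells, and Cd34 there was at 24.2 and 49.2 CPM. Early B lineage cells can express Cd34, and the part of free RNA in these levels was not tested. The lower values of Lipo-Clo in the other Col1a1 cells are not read as a difference in their expression.

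Most leading genes were shared with the Ccl19 and Gdf10 fibroblasts. Cd34 was at 419 CPM in Lipo-Clo and 439 in Lipo-PBS in those cells, and Col14a1 was at 787 and 1010 CPM, against 608 and 716 in the members. Ly6a differed most between the classes among the leading genes, at 734 and 774 CPM in the members and 78.2 and 83.5 in the Ccl19 and Gdf10 fibroblasts. Emilin2 stood at 80.3 and 88.3 CPM against 25.3 and 44.7. With 1 library per condition these contrasts were not tested.

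**Figure D2:**
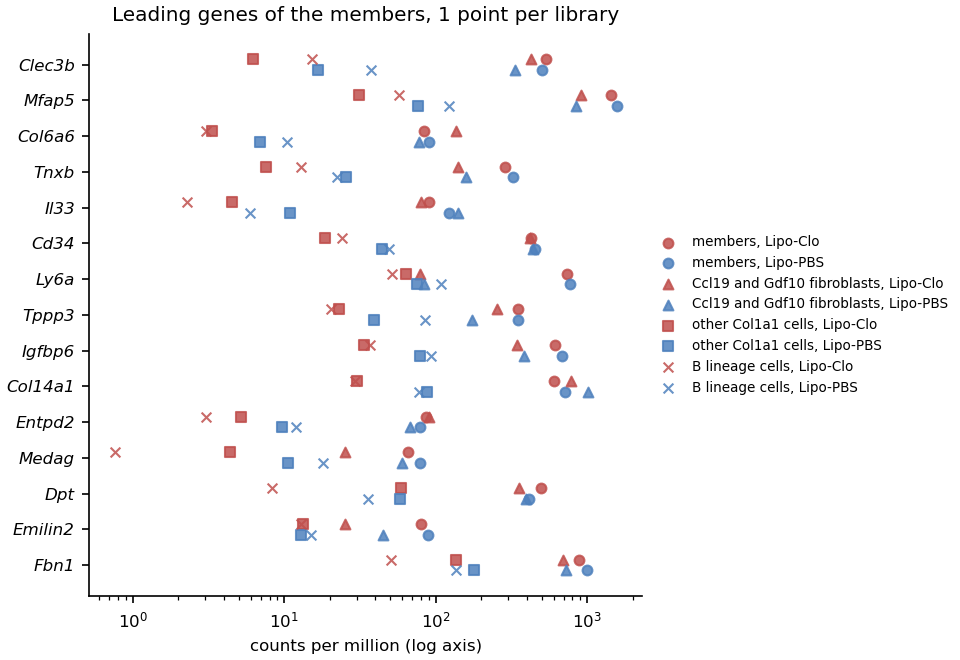
Level of the 15 leading genes in CPM (x axis, log scale) in 4 classes of cells, 1 point per library (red Lipo-Clo, blue Lipo-PBS). Members (circles) and Ccl19 and Gdf10 fibroblasts (triangles) lie close together for most genes and apart for Ly6a, and the other Col1a1 cells (squares) lie near B lineage cells (crosses) for several genes.

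By the sum of adventitial markers, the label held for a part of the members. Clustering without the genes of the rule gave 9 subgroups, which were given no cell type names. In subgroups 1, 2 and 4 the 20 adventitial markers summed to at least 5000 CPM in both libraries, and these are called marker-high below. They held 195 of the Lipo-Clo members (57.0%) and 355 of the Lipo-PBS members (53.8%). Subgroup 1 (72 and 164 cells) was led by the matricellular gene Ccn3, the angiotensin receptor gene Agtr2 and the ferritin receptor gene Scara5, with Pi16, Ly6a and Ly6c1 among its 10 leading genes. Subgroup 2 (94 and 92 cells) was led by Hmcn2, which encodes hemicentin-2, the basement membrane collagen gene Col15a1 and the eotaxin gene Ccl11. Subgroup 4 (29 and 99 cells) was led by Cilp, a gene of cartilage matrix, C1qtnf3 and Ccn2, with Thbs4, Eln and Prelp among its 10 leading genes.

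The other subgroups were led by genes of other cell types. Periodontal ligament markers did not set them apart, at 8456 and 8842 CPM in subgroup 1 and 4187 and 9464 in subgroup 3. In the marker-high subgroup 4 they summed to 8041 and 8143 CPM, above its adventitial sum of 6130 and 5570. Over all marker-high members they summed to 5942 and 7454 CPM, against 3837 and 5256 in the other Col1a1 cells. Subgroups 3 (52 and 122 cells) and 6 (45 and 31 cells), called dental-marker below, were led by Fat3, Ibsp and Tnn and by Dio2, Grem1, Col7a1 and Mmp11. Osteoblast and cementoblast markers summed to 2546 and 5646 CPM in subgroup 3, against 289 and 378 in subgroup 1, and dental follicle markers to 2899 and 2861 CPM in subgroup 6. Subgroups 5, 7, 8 and 9, with 50 Lipo-Clo and 152 Lipo-PBS cells in all, were mixed. Subgroup 5 was led by the neutrophil genes S100a8, Camp and S100a9, with neutrophil markers at 62238 and 18253 CPM, subgroup 7 by division genes with erythroid markers at 78990 and 92727 CPM, subgroup 8 by the enamel genes Amelx and Amtn, and subgroup 9 by keratin genes.

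**Figure D3:**
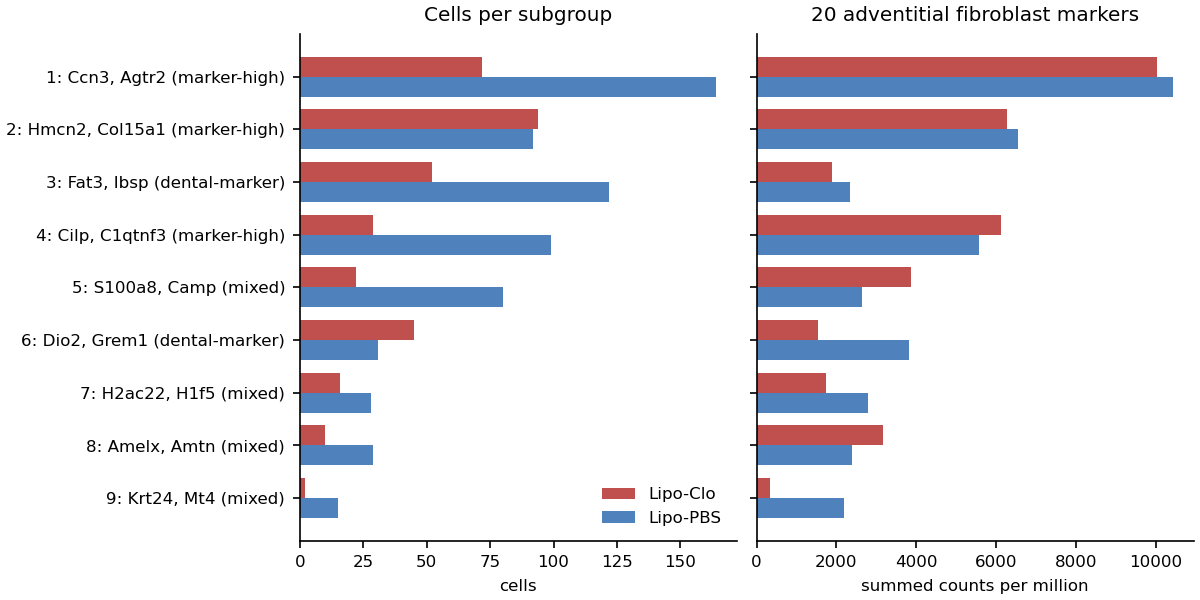
Left, cells per subgroup (x axis) in Lipo-Clo (red) and Lipo-PBS (blue), with 2 leading genes and the kind of each subgroup; right, summed CPM of 20 adventitial fibroblast markers. The marker sum passes 5000 in both libraries in subgroups 1, 2 and 4 and in no other subgroup.

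Within the marker-high subgroups members made up 2.19% (1.90 to 2.52) of kept Lipo-Clo cells and 3.99% (3.59 to 4.42) of kept Lipo-PBS cells, a log2 ratio of −0.86 (−1.12 to −0.61). Without the mixed subgroups the shares were 3.29% and 5.71% (−0.80). No marker list specific to gingiva was used, so the gingival part of the label was not checked. The sizes of single subgroups are not read as results, since the genes that form them differ between the libraries.

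Between conditions, elastin and its partner Mfap4 were higher in Lipo-Clo members, and the basement membrane collagen genes Col4a1 and Col4a2 were lower. Of 9 small proteoglycans in use 4 were past 1.5-fold lower. Of 33 mesenchymal transcription factors in use 8 were past 1.5-fold lower and 3 past it higher. Each ratio below divides Lipo-Clo by Lipo-PBS and is given on a log2 scale, from UMIs summed over all members of a library and scaled to CPM. Of 5351 genes in use, 141 (2.64%) were past 1.5-fold higher in Lipo-Clo and 545 (10.2%) past 1.5-fold lower. In the marker-high subgroups 301 (5.63%) and 970 (18.1%) of the same genes were past the limit. In the other Col1a1 cells 49 (0.986%) and 263 (5.29%) of 4970 were. These counts follow from size alone. Genes in use had a UMI in at least 10% of the members of either library, and of the 545 lower genes 261 met this only in Lipo-PBS, where they are high, as 61 of the 141 higher genes did only in Lipo-Clo. For such genes the filter itself favours a difference. Of the 4454 genes that met it in both libraries, 79 (1.77%) were past the limit in the higher direction and 284 (6.38%) in the lower. Of the genes named below, Ebf2, Dgkb, Lbp, Apod, Abca9, Nox4, Gfpt2, Fmod, Ccl2, Cxcl2, Masp1, Acvrl1 and Mmp3 met it only in Lipo-PBS, and Insl6, Grem1, Moxd1, Foxf2, Col23a1, Fbln7 and Lamc3 only in Lipo-Clo. Of 77 genes chosen by the naming rule that were past the limit, 32 stayed past it in each alternative run for them and 45 fell within it in at least 1. Among those higher in Lipo-Clo 4 of 27 stayed past it (Insl6, Col23a1, Plaat3 and Angptl4), and among those lower 28 of 50.

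Genes that were lower in Lipo-Clo tended to be long. Of the nuclear genes past the limit in the lower direction in the members, 52.6% span over 100 kb of the genome, by the RefSeq annotation of GRCm38.p6, against 17.6% of all genes in use and 6.43% of those past it in the higher direction. The median log2 ratio was 0.15 for genes under 20 kb, −0.11 for genes of 20 to 100 kb and −0.39 for longer ones. The other Col1a1 cells showed the same order, at 0.18, −0.10 and −0.36. The part of gene length in the results below was not tested. Of the lower genes described below, Col4a1 (114 kb), Col4a2 (136 kb), Nox4 (154 kb), Sema3c (155 kb), Ebf2, Ebf1, Bnc2 and Dgkb span over 100 kb.

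The 5 markers of the rule chose the members, so their summed level there is set by the selection and is no comparison of the conditions. Clec3b was at 538 CPM in Lipo-Clo and 500 in Lipo-PBS (0.11, −0.03 to 0.24), Mfap5 at 1430 and 1576 CPM (−0.14, −0.22 to −0.06) and Dpt at 493 and 415 CPM (0.25, 0.10 to 0.39). Ly6a was at 734 and 774 CPM (−0.08, −0.19 to 0.04) and Pi16 at 119 and 154 CPM (−0.37, −0.65 to −0.10). A Ly6a UMI was found in 46.8% of Lipo-Clo and 66.5% of Lipo-PBS members (41.1% and 55.3% after thinning), and its level varied by subgroup in both directions, at 2341 and 1780 CPM in subgroup 1, 951 and 734 in subgroup 3 and 93.8 and 545 in subgroup 4. Of the 16 adventitial markers in use, 0 were past the limit in the higher direction and 4 in the lower one, against 2.64% and 10.2% of all genes in use, with a median of −0.19 against −0.03. Among marker-high members 0 and 2 of the 16 were past it, against 5.63% and 18.1%. The 4 in all members were Gfpt2 (23 and 95 UMIs, −1.05), which passed the filter only through Lipo-PBS, the complement-regulating surface protein gene Cd55 (70 and 263 UMIs, −0.92), the guidance cue gene Sema3c (188 and 586 UMIs, −0.65) and Anxa3 (50 and 154 UMIs, −0.63). Sema3c fell within the limit in 5 of 15 alternatives, at −0.43 both in the marker-high subgroups and at an equal mixture of subgroups.

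Elastic fibres are built from tropoelastin, the product of Eln, laid on fibrillin microfibrils. Eln was at 3247 and 1931 CPM in the members (4284 and 5073 UMIs), a log2 ratio of 0.75 (0.69 to 0.81). In the marker-high subgroups it was at 6512 and 3043 CPM (1.10, 1.03 to 1.17), and the median cell there stood at 1851 and 770 CPM. A UMI of Eln was found in 66.7% and 70.9% of all members and in 79.5% and 73.0% of the marker-high ones, so that over all members the share of cells with Eln did not follow its summed level. Each marker-high subgroup had the higher value in Lipo-Clo: 0.98 in subgroup 1 (375 and 503 UMIs), 1.03 in subgroup 2 (1745 and 790 UMIs) and 14839 against 6014 CPM in subgroup 4 (1266 and 1910 UMIs), of which Eln is a leading gene. Subgroups 6 (−2.01), 7 (−1.04) and 9 (−5.85, from 1 and 242 UMIs) went the other way. At an equal mixture of subgroups in both libraries the ratio was 0.95. With a limit of at least 3 marker UMIs for membership it was 0.501, under the 1.5-fold limit.

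Outside the members, Eln was lower in Lipo-Clo in the other Col1a1 cells (270 and 381 CPM, −0.50). B lineage cells carried 295 and 143 CPM, but an Eln UMI was found in 5.18% of the Lipo-Clo and 10.7% of the Lipo-PBS ones. In that class the summed level did not follow the share of cells with Eln. In the Ccl19 and Gdf10 fibroblasts Eln was at 4611 and 4146 CPM (0.15). The difference between classes was not tested. Mfap4, a microfibril-associated protein that binds tropoelastin, was at 1220 and 769 CPM in the members (0.67, 0.57 to 0.76) and at 0.84 (0.73 to 0.95) in the marker-high subgroups. Within subgroups 1, 2 and 4 Mfap4 stood at 0.24 (−0.12 to 0.59), 0.41 and 0.43, under the limit in each, and it was at 0.38 at an equal mixture of subgroups. Of 21 elastic fibre genes in use, only these 2 were past the limit and 16 were above 0, with a median of 0.11. Of all 5351 genes in use, 2.64% were past it in the higher direction and 10.2% in the lower, and 2525 were above 0. Fbn1 was at 879 and 1003 CPM (−0.19) and the crosslinking enzyme gene Lox at 312 and 236 CPM (0.40).

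Collagens of the interstitial matrix moved little. Col1a1, a gene of the rule, stood at 0.26, Col1a2 at 0.21 (0.18 to 0.23) and Col3a1 at 22911 and 19553 CPM (0.23, 0.21 to 0.25). The basement membrane chains Col4a1 and Col4a2 were lower. Col4a1 was at 177 and 319 CPM (233 and 839 UMIs, −0.85, −1.07 to −0.64) and Col4a2 at 117 and 177 CPM (155 and 464 UMIs, −0.59, −0.86 to −0.32). Col4a2 fell within the limit in 8 of 15 alternatives, at −0.56 with TMM factors and at −0.43 without cells carrying 3 or more UMIs of other lineages. Col4a1 was lower in 8 of the 8 subgroups with at least 20 of its UMIs, and at −1.04 in the other Col1a1 cells. The level of Col4a1 in B lineage cells, 46.1 and 242 CPM, moved the same way. In a list of 20 fibrillar and associated collagens, 18 were in use, with a median of −0.06. Of these, 0 were past the limit in the higher direction and 2, Col4a1 and Col4a2, in the lower. Of all genes in use 2.64% and 10.2% were past it, so the lower count was near the share over all genes. Outside that list the transmembrane collagen gene Col23a1 was higher in Lipo-Clo, with 94 and 64 UMIs (1.55, 1.07 to 2.03). In the marker-high subgroups it had 16 and 18 UMIs (0.85, −0.22 to 1.90), and at an equal mixture of subgroups it was at 0.97.

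Small leucine-rich proteoglycans bind collagen fibrils and set their diameter. Of 9 in use, 0 were past the limit in the higher direction and 4 in the lower, against 2.64% and 10.2% of all genes in use, with a median of −0.27. Fmod, which encodes fibromodulin, had 43 UMIs in Lipo-Clo and 232 in Lipo-PBS (−1.44, −1.94 to −0.96), and passed the filter only through Lipo-PBS. Ecm2 had 58 and 244 UMIs (−1.08, and −0.48 after thinning), and Prelp was at 68.2 and 140 CPM (−1.04, −1.39 to −0.71) and the asporin gene Aspn at 1071 and 1882 CPM (−0.81, −0.90 to −0.73). At an equal mixture of subgroups Fmod, Prelp and Aspn were nearer to 0, with Fmod at −0.74, Prelp at −0.74 and Aspn at −0.49, the last within the limit. Decorin (Dcn), at 2418 and 2919 CPM, was at −0.27, and lumican (Lum), at 2482 and 2093 CPM, at 0.25. The 4 genes past the limit were also lower in the other Col1a1 cells, Prelp at −1.47 and Fmod at −1.06 among them.

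Mgp, which encodes matrix Gla protein, an inhibitor of mineralization, was at 788 and 1334 CPM (1040 and 3505 UMIs, −0.76, −0.86 to −0.66). It was lower in 9 of the 9 subgroups, at −0.80 in subgroup 1, −0.20 in subgroup 2 and −1.25 in subgroup 4, and at −1.55 in the other Col1a1 cells. Mgp spans 3.39 kb, and the part of gene length in its ratio was not tested. In B lineage cells Mgp was at 108 and 286 CPM, and the part of free RNA in its ratio was not tested.

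Of 33 transcription factors of mesenchyme in use, 3 were past the limit in the higher direction and 8 in the lower, against 2.64% and 10.2% of all genes in use. Their median was −0.17, and 12 of them were above 0, against 2525 of all 5351 genes in use. In the marker-high subgroups 1 and 11 of the 33 were past the limit, against 5.63% and 18.1% of all genes in use. Ebf2, an early B-cell factor known from adipose precursors, had 15 UMIs in Lipo-Clo and 130 in Lipo-PBS (11.4 and 49.5 CPM, −2.12, −3.00 to −1.35), and passed the filter only through Lipo-PBS. After thinning to 2000 UMIs, 3.55% (1.71 to 6.42) of Lipo-Clo and 9.30% (7.03 to 12.02) of Lipo-PBS members had an Ebf2 UMI, against 0 of 197 (at most 1.86%) and 4 of 122 (3.28%) B lineage cells. Its relative Ebf1 was at 506 and 816 CPM (−0.69, −0.82 to −0.56), Bnc2 at 58.4 and 133 CPM (−1.19, −1.56 to −0.83) and the limb and facial mesenchyme factor Prrx1 at 253 and 405 CPM (−0.68, −0.86 to −0.50). In the other Col1a1 cells Ebf2 stood at −2.14, Ebf1 at −0.61, Bnc2 at −1.39 and Prrx1 at −0.64. At an equal mixture of subgroups Prrx1 (−0.55) and Ebf1 (−0.50) were within the limit, while Ebf2 (−1.72) and Bnc2 (−0.97) were past it. Of these, Ebf2, Ebf1 and Bnc2 are long, with spans of 198 kb for Ebf2, 390 kb for Ebf1 and 409 kb for Bnc2. Twist2 (75.8 and 47.2 CPM, 0.68, and 0.45 at an equal mixture), Foxf1 (79 and 96 UMIs, 0.71) and Foxf2 (56 and 62 UMIs, 0.85) were the 3 past the limit in the higher direction. In the marker-high subgroups Foxf1 fell within it (25 and 43 UMIs, 0.23), as it also did after thinning (0.35), and Foxf2 stood at −0.72 from 3 and 10 UMIs.

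Other genes with large ratios in the lower direction carried few UMIs, and the 5 named here passed the filter on low values only through Lipo-PBS. The diacylglycerol kinase gene Dgkb, which spans 754 kb, had 15 and 136 UMIs (−2.19, −3.06 to −1.41). Lbp, which encodes the lipopolysaccharide-binding protein, had 21 and 143 UMIs (−1.77, −2.51 to −1.11), and the apolipoprotein gene Apod 25 and 159 UMIs (−1.68, −2.35 to −1.06). Lbp and Apod span 26.4 kb and 18.6 kb, and the part of gene length in their ratios was not tested. Both were lower in the marker-high subgroups (−1.42 and −1.87) and in the other Col1a1 cells (−1.58 and −1.45). The ABC transporter gene Abca9 (14 and 94 UMIs, −1.75) and the NADPH oxidase gene Nox4 (14 and 88 UMIs, −1.66) belonged to the same group.

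**Figure D4:**
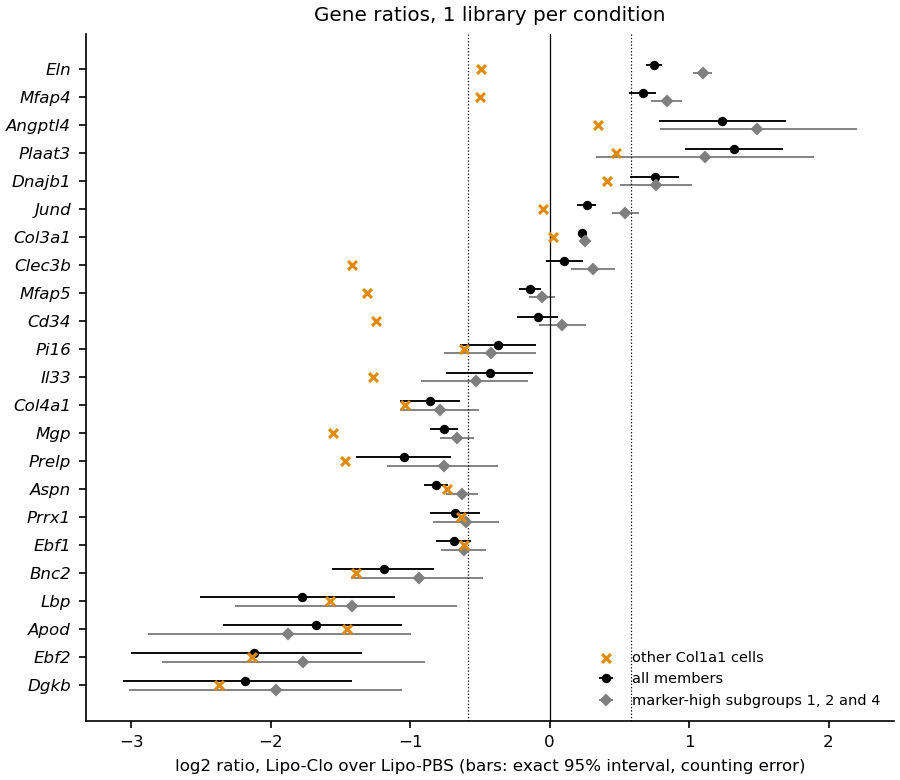
Log2 ratio, Lipo-Clo over Lipo-PBS (x axis), for 23 genes in all members (black) and in the marker-high subgroups (grey), with bars for the exact 95% interval of counting error and dotted lines at 1.5-fold; orange crosses give the other Col1a1 cells. Eln and Mfap4 lie right of 0 in the members and left of it in the other Col1a1 cells, and from Col4a1 downward all members lie at or below −0.68.

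Complement and chemokine genes past the limit were lower in Lipo-Clo. Of 8 complement components and regulators in use, 0 were past the limit in the higher direction and 3 in the lower, against 2.64% and 10.2% of all genes in use, with a median of −0.36. Among them were the lectin pathway protease gene Masp1 (44 and 160 UMIs, −0.87, past the filter only through Lipo-PBS) and Cd55, given above. Of 9 chemokines and cytokines 0 were past it in the higher direction and 3 in the lower, and their median of −0.42 turned to 0.099 without cells carrying 3 or more UMIs of other lineages. The monocyte attractant gene Ccl2 had 41 and 334 UMIs (−2.03, −2.54 to −1.56), of which the mixed subgroup 5 held 10 and 227, and 5 Lipo-PBS cells held 167. In the marker-high subgroups Ccl2 had 8 and 44 UMIs. Cxcl2 (62 and 332 UMIs, −1.43) and Cxcl1 (56 and 183 UMIs, −0.71), which attract neutrophils, were the others, while the stromal chemokine gene Cxcl12 was level at 159 and 151 CPM (0.07, −0.17 to 0.32).

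Genes of transforming growth factor-β (TGF-β) signalling and its targets, a pathway of matrix production, were mostly within the limit. Of 33 in use, 0 were past the limit in the higher direction and 5 in the lower, against 2.64% and 10.2% of all genes in use, with a median of −0.12. The 5 were the receptor gene Acvrl1 (20 and 73 UMIs, −0.87), which passed the filter only through Lipo-PBS, Ccn2 (170 and 604 UMIs, −0.84), Thbs1 (67 and 234 UMIs, −0.81), the smooth muscle actin gene Acta2 (157 and 499 UMIs, −0.67) and the repressor gene Skil (91 and 272 UMIs, −0.59). Ccn2 fell within the limit in 3 of 15 alternatives. Acta2 depended on the cells included, at −0.12 without the mixed subgroups (149 and 288 UMIs, 144 and 157 CPM) and at −1.66 in the marker-high ones (20 and 128 UMIs). The ligand gene Tgfb1 stood at 103 and 81.1 CPM (0.35, 0.03 to 0.66), the receptor genes Tgfbr1 and Tgfbr2 at 0.13 (−0.26 to 0.51) and −0.47 (−0.70 to −0.25), and the matrix target Postn at 3956 and 4061 CPM (−0.04). Mural markers summed to 224 and 344 CPM, with Acta2 the most abundant.

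Nuclear genes of oxidative phosphorylation lay slightly above 0 together, and a few stress-response genes were past the limit. Of 65 oxidative phosphorylation genes in use 62 were above 0 and 0 past the limit in either direction, with a median of 0.22. Of all 5351 genes in use 2525 were above 0, and 2.64% and 10.2% were past the limit in the higher and lower direction. The oxidative phosphorylation median was 0.32 in the other Col1a1 cells. Genes of any kind that span under 20 kb had medians of 0.15 in the members and 0.18 in the other Col1a1 cells. Cox8a, the most abundant gene of the list, spans 2.46 kb, and the part of gene length here was not tested. Unlike these nuclear genes, all 12 mitochondrially coded genes in use were lower, with mt-Co1 at 443 and 7187 UMIs (−3.03), as in the other Col1a1 cells (−2.57). Of 24 immediate early and heat shock genes, which rise during tissue dissociation as well as under stress, 4 were past the limit in the higher direction and 0 in the lower, against 2.64% and 10.2% of all genes in use. These were Hspa1b (127 and 73.1 CPM, 0.79), Dnajb1 (369 and 219 CPM, 0.75, 0.58 to 0.93), Hspa1a (136 and 87.2 CPM, 0.64) and Nr4a1 (186 and 123 CPM, 0.61). At an equal mixture of subgroups Hspa1b (0.39), Dnajb1 (0.53) and Hspa1a (0.19) were no longer past it. Their median was 0.18 in the members, 0.35 in the marker-high subgroups and −0.26 in the other Col1a1 cells.

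Genes with the largest ratios in the higher direction belonged in part to the dental-marker subgroup 6, which holds 45 Lipo-Clo and 31 Lipo-PBS cells. Grem1, which encodes the BMP antagonist gremlin-1, had 137 and 88 UMIs (1.63, 1.24 to 2.04), of which subgroup 6 held 120 and 29. Bmp3 (244 and 187 UMIs, 1.38) and Moxd1 (189 and 125 UMIs, 1.59) were also dental follicle markers. At an equal mixture of subgroups Grem1 stood at 0.81, Bmp3 at 0.91 and Moxd1 at 0.77. All 3 fell within the limit in members with at least 10 marker UMIs, Grem1 at 0.18, Bmp3 at 0.54 and Moxd1 at 0.25. Bmp3 was also within it in the marker-high subgroups (25 and 35 UMIs, 0.53), where Moxd1 had 0 and 3 UMIs. Angptl4, which encodes an inhibitor of lipoprotein lipase, was less tied to that mixture. It had 90 and 76 UMIs (68.2 and 28.9 CPM, 1.24, 0.78 to 1.70), and in the marker-high subgroups 43 and 31 (1.49, 0.79 to 2.20). The phospholipase gene Plaat3 was at 119 and 47.6 CPM (1.32), and at 1.11 (0.34 to 1.90) in the marker-high subgroups. The relaxin-family gene Insl6 had 64 and 21 UMIs (2.60, 1.87 to 3.39), of which subgroup 3 held 37 and 15.

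**Figure D5:**
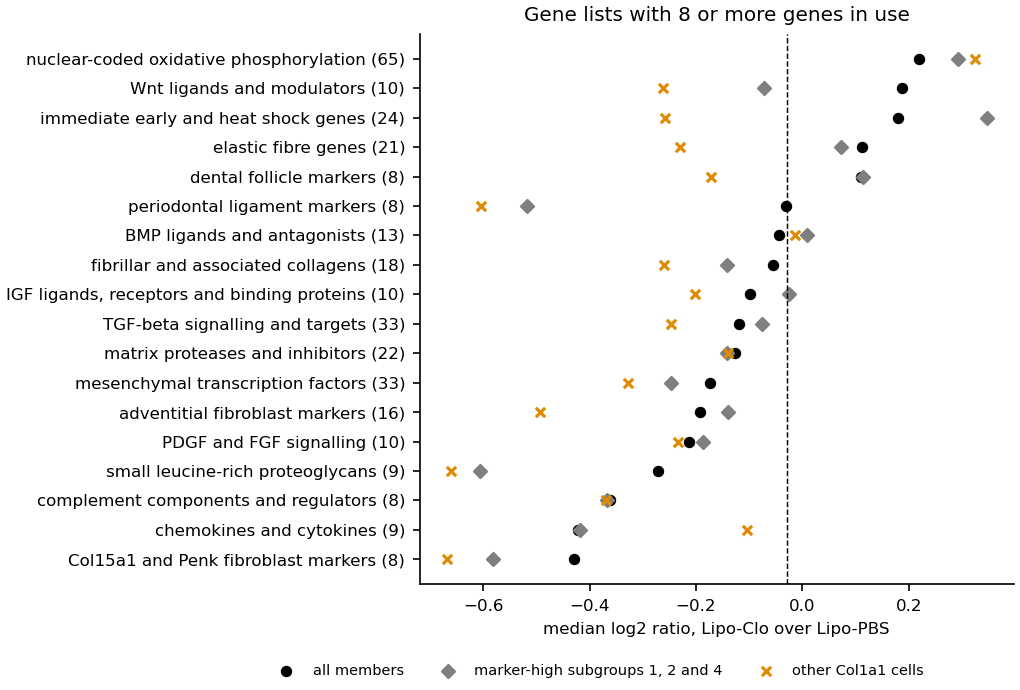
Median log2 ratio, Lipo-Clo over Lipo-PBS (x axis), of gene lists with at least 8 genes in use (number in brackets), in all members (circles), the marker-high subgroups (diamonds) and the other Col1a1 cells (crosses); the dashed line is the median of all genes in use, −0.03. Oxidative phosphorylation is at 0.22 and small proteoglycans at −0.27 in the members, and elastic fibre genes are at 0.11 in the members and −0.23 in the other Col1a1 cells.

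RNA of other cell types was present in the members and differed between the libraries. The 10 neutrophil markers summed to 5540 CPM in Lipo-Clo and 3116 in Lipo-PBS, with S100a9 the most abundant (3102 and 1571 CPM), and 5 Lipo-Clo cells held 79.1% of its UMIs. In the marker-high subgroups the neutrophil sum was 421 and 117 CPM. Erythroid markers summed to 17161 and 36443 CPM, led by Hbb-bs. The 14 macrophage markers summed to 521 and 686 CPM, with Apoe the most abundant (164 and 259 CPM), and to 212 and 203 CPM in the marker-high subgroups. The 10 lymphocyte markers summed to 109 and 100 CPM, the 8 endothelial markers to 41.7 and 102, the 8 glial markers to 172 and 324, and the 11 epithelial and ameloblast markers to 1022 and 1164, led by Odam. Enam was at 0 in both libraries. Bglap, the osteocalcin gene of osteoblasts, had 130 and 972 UMIs (−1.91), and 5 Lipo-PBS cells held 475 of them. The part of these transcripts in the results was not tested.

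The counts of the remaining lists stand against the same 2.64% and 10.2% of all genes in use. Matrix proteases and inhibitors (22 in use) had 1 gene past the limit in the higher direction, the stromelysin-3 gene Mmp11 (86 and 104 UMIs, 0.72), and 4 in the lower, led by the stromelysin-1 gene Mmp3 (40 and 183 UMIs, −1.20). Wnt ligands and modulators (10 in use) had 1 and 0, the ligand gene Wnt5a (340 and 374 UMIs, 0.86), which stood at 0.11 in the marker-high subgroups. BMP ligands and antagonists (13 in use) had 2 and 1. Insulin-like growth factor genes and PDGF and FGF genes (10 in use each) had 0 and 0, with Igfbp5 at 0.46 and Pdgfra at 216 and 233 CPM (−0.11, −0.31 to 0.10). Adipogenic genes (7 in use) had 0 and 1, Apod. Col15a1 and Penk fibroblast markers (8 in use) had 0 and 4, with a median of −0.43. Periodontal ligament markers (8 in use) had 1 and 3, dental follicle markers (8) 3 and 1, osteoblast and cementoblast markers (6) 0 and 2, and odontoblast and pulp markers (2) 0 and 0. The medians of these lists lay between −0.43 for the Col15a1 and Penk list and 0.46 for 3 DNA replication and mitosis genes, of which Ube2c (107 and 134 UMIs, 0.67) was past the limit. The DNA replication median was −0.15 when markers had to reach 0.2% of UMIs. The osteoblast and cementoblast list was at −0.34, and the Wnt list at 0.19 in the members and −0.07 in the marker-high subgroups. Over all alternatives 17 of 28 lists changed the sign of their median.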

How the data were processed

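The deposited files hold raw UMI counts of 34285 genes in each cell called by the authors, without normalization. Per the file headers they come from Cell Ranger 8.0.0, while the submitters' processing notes name Cell Ranger 3.1.0, Seurat 3.1.1 and GRCm39 (mm39). Gene spans were taken from RefSeq GRCm38.p6 and no coordinates are given. Cells were selected as described in numpy 2.4.6 and scipy 1.17.1. UMIs were summed over the members of each library and scaled to CPM. Genes in use had a UMI in at least 10% of the members of either library and at least 20 UMIs in both together. Shares carry exact Clopper-Pearson and ratios exact Poisson intervals at the 95% level, checked on simulated data, and PCR duplicates are removed only as far as UMIs allow. Depth is given as totals per library, median UMIs per member and, for the genes the text turns on, their UMIs or CPM. With 1 library per condition, genes were counted by a 1.5-fold limit and no test was run.

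Members of both libraries were clustered together with Leiden (scanpy 1.11.5, leidenalg 0.10.2, 1000 variable genes without the 19 genes of the rule, 15 components, 15 neighbours, resolution 0.5). B lineage cells had 3 or more UMIs over Cd79a, Cd79b, Vpreb3 and Ms4a1. Scrublet's automatic threshold called 0 Lipo-Clo and 1 Lipo-PBS cell, so doublets were kept, and the highest 632 and 633 scores were left out as an alternative.

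The members, the 30 lists with 555 genes and the rules were chosen with earlier results of these data known. Named genes were those of the rule, the 15 leading genes and those the study names for dental mesenchyme. The leading genes had the largest fold over other Col1a1 cells, among genes detected in 20% or more of each library's members. Also named were the 12 with the largest ratio each way and one sign in at least 75% of subgroups. Each list added up to 3 by abundance and by ratio each way. The genes Skil, Anxa3, Lox, Nr4a1 and mt-Co1, and the leading genes of subgroups, are outside this rule and were chosen after their values were seen. Some genes are not reported here.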

Additional observations from a re-analysis of the deposited data

Results flagged for a closer look

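The stromelysin-3 gene Mmp11 stood at 0.72 in the members (86 Lipo-Clo and 104 Lipo-PBS UMIs) and at −1.13 in the other Col1a1 cells, in log2 ratios of Lipo-Clo to Lipo-PBS. It is listed because the directions are opposite in the 2 classes. The difference was not tested. Mmp11 is a leading gene of subgroup 6, and at an equal mixture of subgroups its ratio in the members was −0.08.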

How the results depend on the processing

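The share of members kept its direction under all 9 alternatives, with log2 ratios from −1.0005 to −0.80. Over all alternatives, 1878 ratios of named genes stayed within their counting interval and 519 moved beyond it, some across 0. Another 12, of genes past 1.5-fold, changed sign, and these are given below. No paired analysis was possible because there was only 1 library per condition. The number of genes past the limit depended on which genes and cells entered. Against 141 genes higher in Lipo-Clo, 278 were past it in members with at least 10 marker UMIs, 235 in the marker-high subgroups with their own genes in use, 661 among all genes with at least 20 UMIs, 23 at a 2-fold limit and 533 at 1.3-fold. Against 545 lower, 327 were past it after thinning to 2000 UMIs, 1745 among all genes, 94 at 2-fold and 1087 at 1.3-fold. Below 0 were 2826 genes, but 1493 of 3189 after thinning and 6091 among all genes. Of the lists 20 had a median below 0, but 13 of 27 after thinning, which left out 60 and 101 members. The elastic fibre median, 0.11, was −0.0095 with at least 3 marker UMIs, and the TGF-β median, −0.12, was 0.028 after thinning. In all, 17 of 28 lists changed the sign of their median in at least 1 alternative and 11 kept it. The cause was not tested.

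Genes past 1.5-fold changed sign in some settings. With at least 10 marker UMIs, Megf6 was at −0.042 and Tnmd at −0.10. With markers at 0.2% of UMIs or more, Apoe was at 0.12, Tnmd at −0.21 and Ube2c at −0.26. Without cells carrying 3 or more UMIs of other lineages, Ube2c was at −0.31. In the marker-high subgroups, Fbln7 was at −0.22, Foxf2 at −0.72, Lamc3 at −0.44, Megf6 at −0.070 and Tnmd at −0.40. At an equal mixture, Mmp11 was at −0.078. Within the limit at an equal mixture were also Ccn2 (−0.58) and Wnt5a (0.37), and with markers at 0.2% of UMIs or more Mgp (−0.37), Col4a1 (−0.53) and Cxcl1 (−0.30). The marker-high subgroups and those without the mixed ones were chosen after seeing the data. Scaling by TMM (edgeR 4.0.16) or DESeq2 1.42.0 factors gave 174 higher genes each, and totals without mitochondrial, haemoglobin and ribosomal genes gave 112.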
